A study of Mus musculus with 6 samples.

Results

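H3K9me3, a histone mark of heterochromatin, was described at the collagen genes of mouse quadriceps femoris, which are all genes with a symbol of the form Col, a number, a and a number. Of the 202553 regions in the authors' table, 587 carried such a symbol. They belonged to 39 symbols on 14 chromosomes. The mark was measured by CUT&Tag, in which a transposase brought to the mark by an antibody cuts and tags the DNA beside it. Frozen muscle of the Prr14-WT genotype gave replicates 3, 4 and 8, that of the Prr14-KO genotype gave replicates 4, 5 and 7, and each library was taken as a separate mouse, which the labels do not state. If some libraries share a mouse, the p-values measure only the spread between these libraries. The product of Prr14 ties HP1-bound heterochromatin to the lamina at the edge of the nucleus. The part of Prr14 deleted, any Cre driver, the strain, the age and the sex are not given in the sources used here. No treatment is named for either group.

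Collagens are triple-helical proteins of the extracellular matrix. Fibrillar collagens build the fibrils of tendon and of the connective tissue around muscle fibres, type IV collagens form the network of the basement membrane, and type VI collagens form beaded filaments close to it. Others bind to fibril surfaces or are anchored in the cell membrane. H3K9me3 recruits HP1 and is found mainly over repeats and silent genes. In muscle, most collagen is made by fibroblasts, which a sample of whole tissue mixes with muscle fibres, so a change in the share of a cell type and a change of the mark per cell cannot be told apart. Expression was not measured here, so the labelled tissue could not be checked against its markers.

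The libraries held 4324444 to 4756133 counts, of which the collagen regions took 0.224% to 0.252%. The lowest share was that of KO replicate 4, and the highest that of KO replicate 7. The labels name no batch. At the targeted gene the table had 1 region, annotated within 1 kb of the Prr14 start site, with 10, 18 and 10 counts in WT replicates 3, 4 and 8 and 14, 56 and 54 counts in KO replicates 4, 5 and 7. KO replicate 4 lay among the WT libraries, and KO replicates 5 and 7 above them. The log2 difference was 1.79 (SE 0.38, edgeR quasi-likelihood adjusted p = 0.0217). The call was lost without WT replicate 3 (edgeR adjusted p = 0.662), WT replicate 8 (0.468), KO replicate 5 (1.00) or KO replicate 7 (1.00), and with DESeq2 (1.00) and limma-voom (0.988), settings that were applied to Prr14 after seeing the data. Over all settings the adjusted p ran from 8.66e-05 to 1.00. Without the position of the deletion the counts do not check the labels.

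Collagen start sites carried the mark at a share near that of all genes. RefSeq (GRCm38.p6) gave 38 promoter windows of 300 bases, from 250 bases before to 50 bases after the start, for 35 of the 45 symbols listed. Symbols without a window, such as Col2a1, Col4a3 and Col14a1, are not counted. A region lay 0.143, 0 and 0.206 kb from the starts of these genes as the authors delimit them. A deposited region overlapped 5 of the 38 windows (13.2%), beside 11.8% of all 32851 windows. The 5 were those of Col1a2, Col4a4, Col9a2, Col18a1 and Col19a1. The 250 bases before the start are printed 5′ to 3′ on the strand of the gene for 3 of them and for Col3a1, a fibrillar collagen without a region near its start. Capitals mark bases inside a deposited region. The sources used here do not say if the table counts positions from 0 or from 1, so an edge of the capitals may shift by 1 base. The windows are Col1a2 at chr6:4505368-4505617 on the plus strand, Col3a1 at chr1:45311288-45311537 on the plus strand, Col4a4 at chr1:82586850-82587099 on the minus strand and Col19a1 at chr1:24587438-24587687 on the minus strand.
Col1a2: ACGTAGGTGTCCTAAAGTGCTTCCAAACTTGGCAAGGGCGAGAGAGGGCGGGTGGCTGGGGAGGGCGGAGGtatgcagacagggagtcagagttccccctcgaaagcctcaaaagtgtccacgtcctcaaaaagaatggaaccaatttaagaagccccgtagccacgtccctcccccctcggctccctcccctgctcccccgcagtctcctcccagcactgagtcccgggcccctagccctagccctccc
Col3a1: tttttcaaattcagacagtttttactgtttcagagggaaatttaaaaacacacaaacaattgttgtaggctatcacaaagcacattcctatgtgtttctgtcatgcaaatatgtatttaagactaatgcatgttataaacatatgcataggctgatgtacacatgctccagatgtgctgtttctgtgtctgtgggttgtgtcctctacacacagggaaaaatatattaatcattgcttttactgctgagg
Col4a4: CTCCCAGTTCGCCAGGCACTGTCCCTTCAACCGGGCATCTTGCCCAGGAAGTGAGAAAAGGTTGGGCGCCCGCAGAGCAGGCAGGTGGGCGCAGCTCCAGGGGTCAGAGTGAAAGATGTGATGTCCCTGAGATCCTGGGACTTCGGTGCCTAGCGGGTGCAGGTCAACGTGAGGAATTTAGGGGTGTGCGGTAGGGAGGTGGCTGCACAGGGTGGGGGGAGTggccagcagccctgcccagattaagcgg
Col19a1: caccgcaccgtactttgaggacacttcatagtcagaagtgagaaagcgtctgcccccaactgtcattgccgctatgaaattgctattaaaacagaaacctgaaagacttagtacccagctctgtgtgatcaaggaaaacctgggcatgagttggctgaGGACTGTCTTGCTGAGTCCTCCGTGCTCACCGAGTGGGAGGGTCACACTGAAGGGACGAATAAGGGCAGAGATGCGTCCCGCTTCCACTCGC

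Coverage of these promoters was partial. At Col1a2, which encodes a chain of type I collagen, the main collagen of tendon, 71 of the 250 bases were covered, all at the end far from the start. At Col4a4, a chain of the type IV network, 222 bases were covered by a region that the authors name for Col4a3, the gene that starts beside it on the other strand. At Col19a1, a fibril-associated collagen, the 92 covered bases lay at the side of the start. At Col3a1, which encodes type III collagen, 0 bases were covered and the nearest region was 25.8 kb away. The letters differ as well, since the printed Col3a1 sequence has 0 CpG and 35.2% G and C, while the Col1a2 sequence has 11 CpG and 62% G and C. Over whole windows the median number of CpG was 14 in the 5 overlapped collagen windows, 10 in the 33 others and 7 in all windows. Windows overlapped anywhere in the genome had a median of 17. 3 motifs were searched on both strands, each on its own. GGGCGG, the GC box, was in 60.5% of collagen windows and in 35.7% of all windows. CCAAT was in 34.2% and 37.4%, and TATAAA was in 13.2% and 13.6%. A match describes the letters and is not evidence of a bound factor.

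Collagen symbols carried more regions than most symbols. The median was 11 regions for a collagen symbol and 4 over all 16587 symbols of the table. These counts are not adjusted for gene length, whose median was 114 kb for collagen genes and 17.1 kb for all protein-coding genes. Of the 587 collagen regions, 282 lay outside the named gene. Of the 45 collagen symbols listed, 6 named no region, namely Col4a2, Col4a5, Col7a1, Col10a1, Col11a2 and Col21a1. Col21a1 has no entry in the RefSeq table used. Inside the span of Col4a2 lay 5 regions that carry other names, and in all 63 such regions lay inside collagen spans. The regions themselves were ordinary in strength. Their median level was 3.12 CPM (counts scaled to a common library size) beside 3.30 CPM for all regions, or 9.90 and 10.1 CPM per kb of region. Their median width was 317 bp beside 318 bp.

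**Figure D1:**
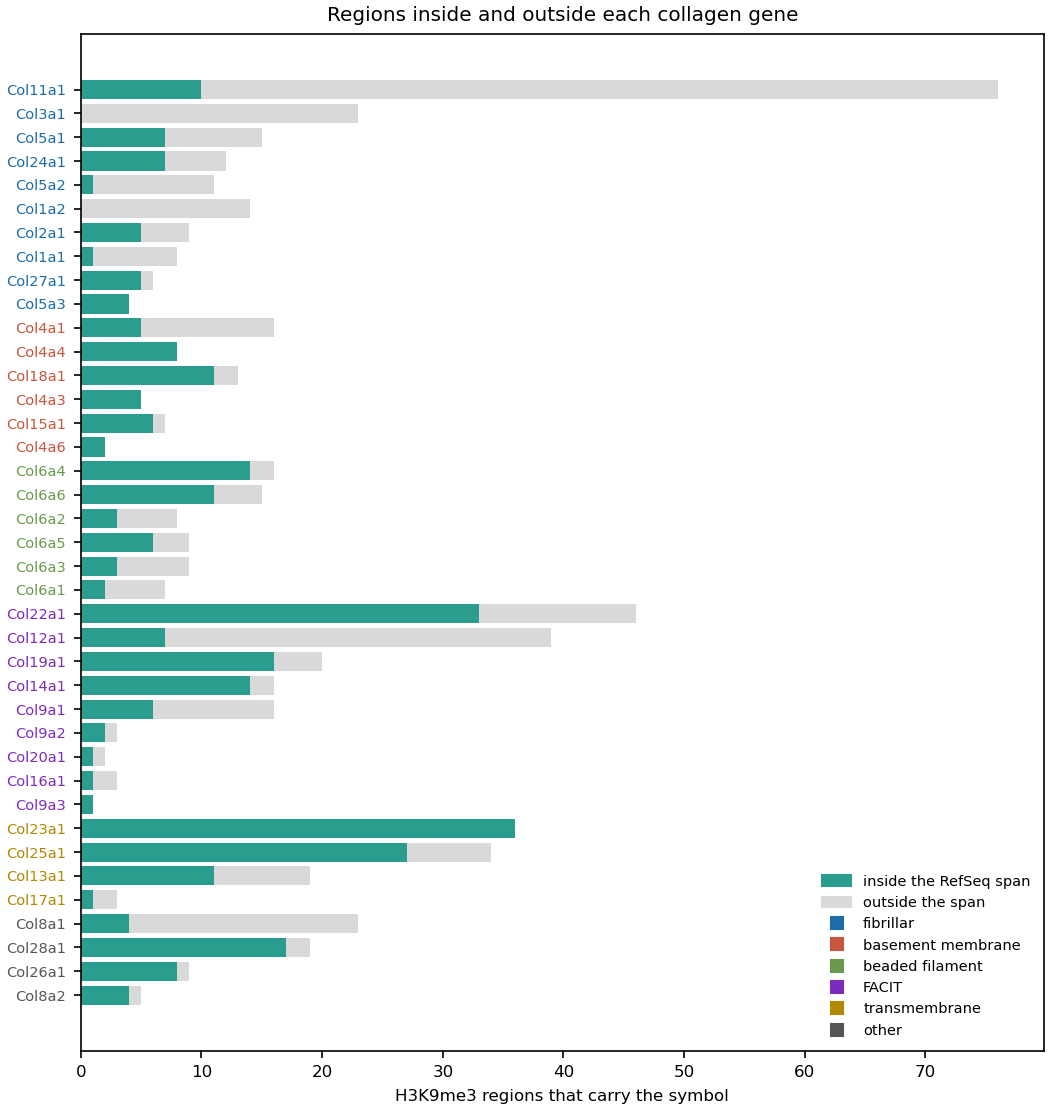
Regions that carry each collagen symbol, as bars of counts, split into those inside (green) and outside (grey) the RefSeq span of the gene, with symbols coloured by class. Col11a1 has 66 of its 76 regions outside the gene and Col23a1 has 36 of 36 inside.

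Where the regions lay differed between classes. In the fibrillar class 75.3% of the 178 regions were intergenic, against 21.6% of the 51 regions of basement membrane collagens and 34.9% of the 358 regions of the other collagens. Over all regions of the table the share was 68.1%. Of the 134 intergenic fibrillar regions, 66 were named for Col11a1 and 22 for Col3a1. Read against gene spans instead, 22.5% of fibrillar regions, 72.5% of basement membrane regions and 63.7% of the other collagen regions lay inside the named gene, beside 25.4% of all regions. The shares are descriptions with no test, as regions of 1 gene are not independent.

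Single genes showed how uneven this was. Col3a1 had 0 of its 23 regions inside the gene. Of those, 21 lay upstream, from 25.8 to 295 kb away, and 2 downstream. Col1a2 had 13 regions more than 23 kb upstream and 1 at its start. Col11a1, a collagen of cartilage fibrils, had the most regions of any collagen (76), of which 26 lay upstream and 40 downstream of the gene. Col5a2, whose chain helps to start fibrils with type I collagen, had 10 of 11 outside. Other fibrillar genes had most regions inside, namely Col5a3 (4 of 4), Col27a1 (5 of 6), Col24a1 (7 of 12) and Col2a1 (5 of 9). By contrast Col23a1, a membrane-anchored collagen, had all 36 inside its span of 294 kb, and Col22a1, a collagen of the junction between muscle and tendon, had 33 of 46 inside. The authors' names reach far along the chromosome (295 kb at Col3a1), so a region outside can be a distant neighbour of the gene. Some regions outside lie close to the start, as at Col1a2 (0.022 kb) and Col2a1 (0.143 kb).

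Compared per length, the mark inside collagen genes was densest in the membrane-anchored class, at 46.0 CPM per 100 kb of span, followed by beaded filament collagens (34.7), other collagens such as types VIII, XXVI and XXVIII (31.9) and fibril-associated collagens (26.5). Fibrillar and basement membrane collagens held 17.1 and 16.0 CPM per 100 kb. Counted in regions, collagen spans held 6.76 per 100 kb, beside 6.08 for all protein-coding genes and 4.83 for those between the quartiles of collagen gene length (35.5 and 144.5 kb). Of the 44 collagen genes with a span, 5 held no region (11.4%), namely Col1a2, Col3a1, Col7a1, Col10a1 and Col11a2. That share was 21.7% among protein-coding genes between the quartiles of collagen gene length. The median length of those genes was 61.4 kb, beside 114 kb for collagen genes, so the shares are not matched for length.

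**Figure D2:**
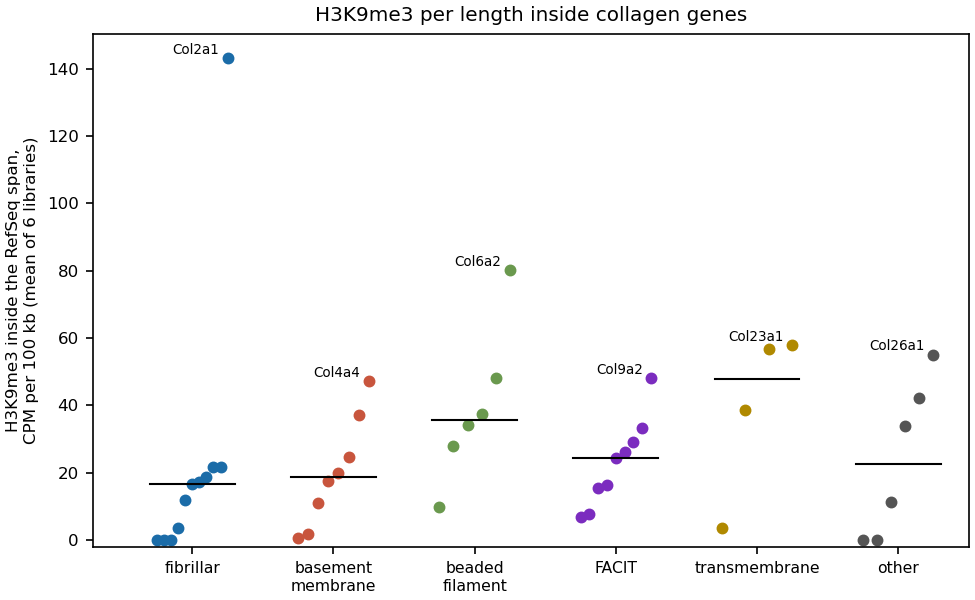
H3K9me3 inside the RefSeq span of each collagen gene, in CPM per 100 kb averaged over the 6 libraries, by class; points are genes, lines are class medians, the highest gene is named and FACIT is the fibril-associated class. Col2a1, at 143 CPM per 100 kb, lies above all other collagens, with 2 of the 7 regions in its span carrying other names.

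The class values hide a wide range. Among fibrillar genes, Col2a1 held 143 CPM per 100 kb, the highest of all collagens, whereas Col1a1 held 18.6, Col5a2 3.55, and Col1a2 and Col3a1 none. All regions inside a span are counted, whatever name they carry. Other names are carried by 2 of the 7 regions in the Col2a1 span (29.1 kb), 2 of 5 at Col6a2 and 8 of 16 at Col26a1. Col2a1 encodes the main collagen of cartilage, and Col1a1, Col1a2 and Col3a1 the main fibrillar collagens of tendon and muscle connective tissue. Other cartilage collagens held less than Col2a1, with 48.0 for Col9a2, 24.4 for Col9a1, 21.8 for Col27a1 and 11.9 for Col11a1, the last below Col1a1. After Col2a1, the highest levels were those of Col6a2 (80.1), a chain of type VI collagen, then Col23a1 (57.8), Col13a1 (56.8), a membrane collagen of the neuromuscular junction, and Col26a1 (55.1). Among type IV genes the level per 100 kb ran from 47.1 for Col4a4 to 1.84 for Col4a6 and 0.657 for Col4a5, both on the X chromosome. Col4a6 and Col4a5 take 309 and 214 of the 1267 kb of basement membrane spans, so they lower the level of that class.

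Exons took a larger share of collagen regions than of all regions. Exonic regions made up 8.18% of collagen regions (48 regions in 24 genes) and 2.06% of all regions. Among regions in exons or introns only, exons took 17.4% for collagens and 8.36% for all genes. Collagen genes have many short exons, and the share of their length that is exonic was not computed. The exonic regions with most counts were 2 in Col13a1 (chr10:61907697-61908989, 13.9 CPM, and chr10:61892266-61893260, 9.31 CPM), then Col15a1 (8.51 CPM), Col23a1 (7.73 CPM) and Col6a4 (5.69 CPM). Of the 290 regions inside the gene as the authors delimit it, 84, 95, 72 and 39 lay in successive equal stretches from the start to the end of the gene.

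The authors annotated 19 collagen regions (3.24%, beside 3.80% of all) within 1 kb of a start site. Of these, 16 were within 1 kb of the start of the gene as the authors delimit it. That start can lie inside the RefSeq span. The Col22a1 region, chr15:72034130-72034344, is 1 of the 16 and lies within the RefSeq span chr15:71795795-72150979. The region with most counts among the 19, chr8:11280651-11282618 with 19.4 CPM, carries the name Col4a1, a chain of the common basement membrane network, but lies 30.2 kb from the start of that gene. Next were Col19a1 (6.63 CPM), Col14a1 (6.18 CPM), a collagen on fibril surfaces, Col2a1 (5.96 CPM) and Col25a1 (5.40 CPM), a membrane collagen needed for motor nerves to reach muscle.

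The strongest collagen region overall was in an intron of Col4a4 (chr1:82477328-82478065), with 77, 101 and 97 counts in WT replicates 3, 4 and 8 and 83, 117 and 98 in KO replicates 4, 5 and 7. The groups overlapped. At 21.0 CPM it was far below the strongest region of the table (21030 CPM). The other regions of high count were the Col4a1 region above, 1 upstream of Col3a1 (chr1:45165442-45166372, 19.3 CPM), 1 intronic in Col23a1 (chr11:51436555-51437706, 17.8 CPM), 2 around Col11a1 (17.6 and 15.3 CPM), 1 intronic in Col26a1 (17.3 CPM) and 1 upstream of Col25a1 (15.7 CPM). In all 8 the wild-type and knockout values overlapped.

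**Figure D3:**
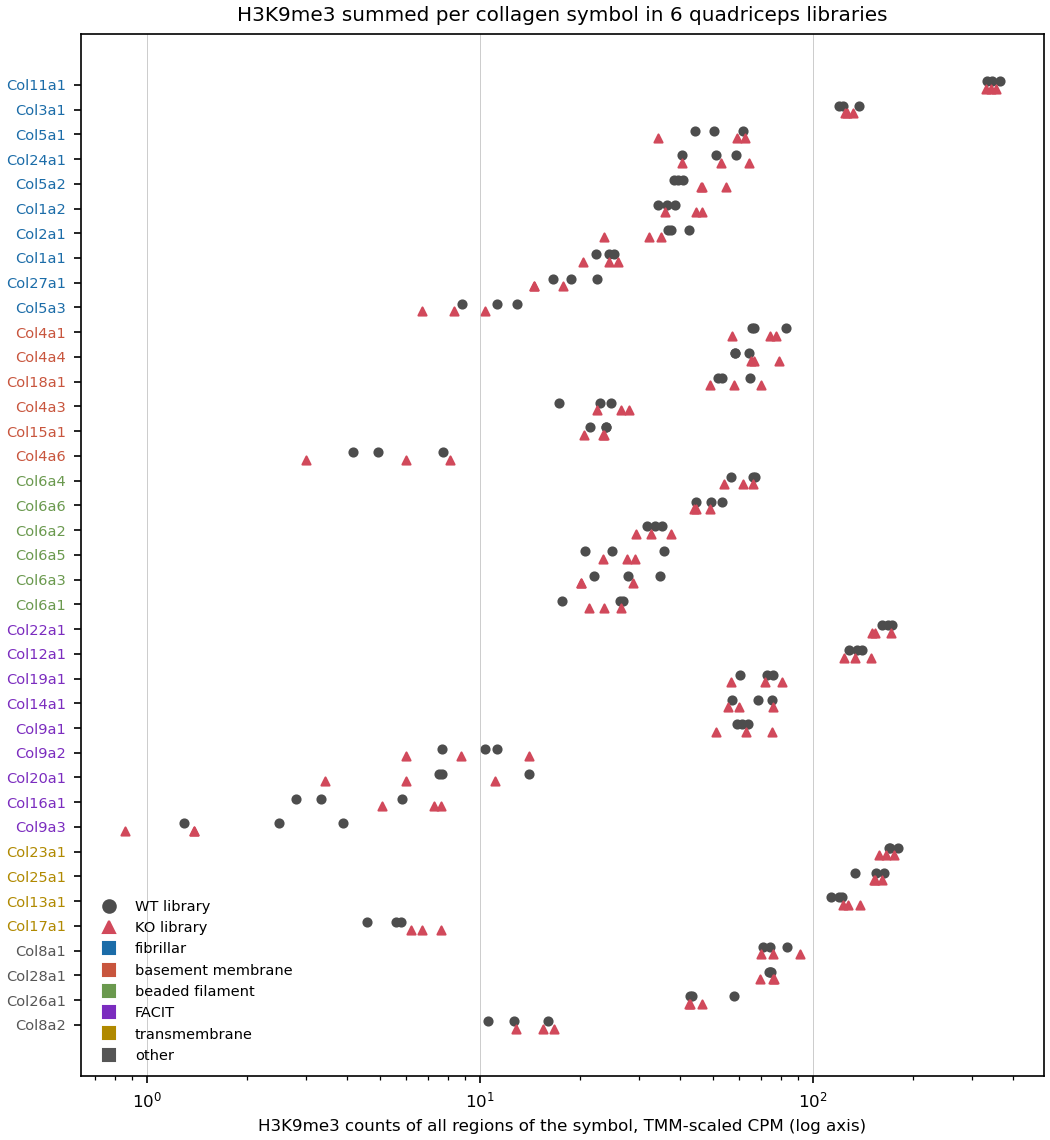
H3K9me3 of all regions of each collagen symbol, in scaled CPM on a log axis, for the 3 WT libraries (circles) and 3 KO libraries (triangles), with symbols coloured by class. The libraries overlap for most symbols; Col11a1 is highest, near 345 CPM in both genotypes.

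Against this map, the knockout was compared with the wild type. Summed over all collagen regions, the mark was 2395 ± 15.5 CPM in WT and 2397 ± 132 CPM in KO (SD, n = 3), a log2 difference of 0.0011. The values were 2410, 2379 and 2397 CPM in WT replicates 3, 4 and 8 and 2255, 2421 and 2516 CPM in KO replicates 4, 5 and 7. The knockout libraries lay on both sides of the wild type and spread more widely. By class, fibrillar collagens had 746 ± 31.8 CPM in WT and 745 ± 38.2 CPM in KO, and basement membrane collagens 239 ± 16.4 and 253 ± 26.0 CPM. The other collagens had 1411 ± 14.8 and 1399 ± 80.8 CPM. These class sums overlapped between genotypes. The type VI (beaded filament) sum did not, with 220, 235 and 219 CPM in WT and 210, 215 and 215 CPM in KO, a log2 difference of -0.08. It was -0.04 without WT replicate 4 and -0.04 without intergenic regions. Both type VI gene clusters overlapped on their own, Col6a4 to Col6a6 with 140 ± 5.13 CPM in WT and 133 ± 5.66 CPM in KO, and Col6a1 with Col6a2 with 57.1 ± 6.84 and 57.0 ± 1.57 CPM (SD, n = 3). Col6a3, the type VI gene outside these clusters, also overlapped, with 28.2 ± 6.38 CPM in WT and 23.0 ± 5.01 CPM in KO. The sums of the fibril-associated, membrane-anchored and remaining classes overlapped as well. No test was made of class sums.

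Per region, 436 of the 587 collagen regions had enough counts to be tested. With edgeR's quasi-likelihood test and Benjamini-Hochberg adjustment over all 153789 tested regions, 0 collagen regions were higher and 0 lower in the knockout, at an adjusted p of 0.05. Over all tested regions 0.00325% were higher and 0.00975% lower, or 0.013% in all. DESeq2 and limma-voom also called 0. At an unadjusted p under 0.05 there were 16 collagen regions with edgeR (3.67%, background 3.86%), 16 with DESeq2 (3.67%, background 3.64%) and 19 with limma-voom (4.36%, background 2.91%). The 16 of edgeR were 8 higher (1.83%, background 2.07%) and 8 lower (1.83%, background 1.78%). Wild-type and knockout values did not overlap in 31 collagen regions (7.11%, background 9.6%), 16 of them higher in KO (3.67%, background 4.7%) and 15 lower (3.44%, background 4.91%). The smallest edgeR adjusted p of a collagen region was 0.998. Of 478 collagen regions with an adjusted p in the authors' deposited table, 0 are under 0.05.

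Per gene, the counts of all regions of a symbol were summed, and 38 collagen sums were tested among 15265, Col9a3 having too few counts. Again 0 were higher and 0 lower by edgeR's quasi-likelihood test at a Benjamini-Hochberg adjusted p of 0.05 (background 0% and 0.0393%), with DESeq2 and limma-voom also at 0. At an unadjusted p under 0.05 there were 2 with edgeR (5.26%, background 3.58%), 1 with DESeq2 (2.63%, background 2.48%) and 2 with limma-voom (5.26%, background 3.24%). The 2 of edgeR were 1 higher (2.63%, background 2.06%) and 1 lower (2.63%, background 1.51%). Genotypes did not overlap in 5 sums (13.2%, background 8.37%), 4 of them higher in KO (10.5%, background 4.87%) and 1 lower (2.63%, background 3.5%). The log2 difference was positive for 14 and negative for 24 of the 38, with a median of -0.03, beside 0.0016 over all gene sums. By class, 3 of 10 fibrillar, 4 of 6 basement membrane and 7 of 22 other sums were positive.

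The intervals show how closely each sum was measured. For 34 of the 38 sums the 95% interval of the log2 difference lay between -1 and 1, so a change of 1 log2 unit or more was outside it. For Col11a1 the interval ran from -0.19 to 0.11, for Col3a1 from -0.20 to 0.18 and for Col12a1 from -0.20 to 0.18. At the other extreme, Col16a1, with 3 regions, had an interval from -0.18 to 1.63. Single regions were less precise, with 128 of 436 intervals between -1 and 1.

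**Figure D4:**
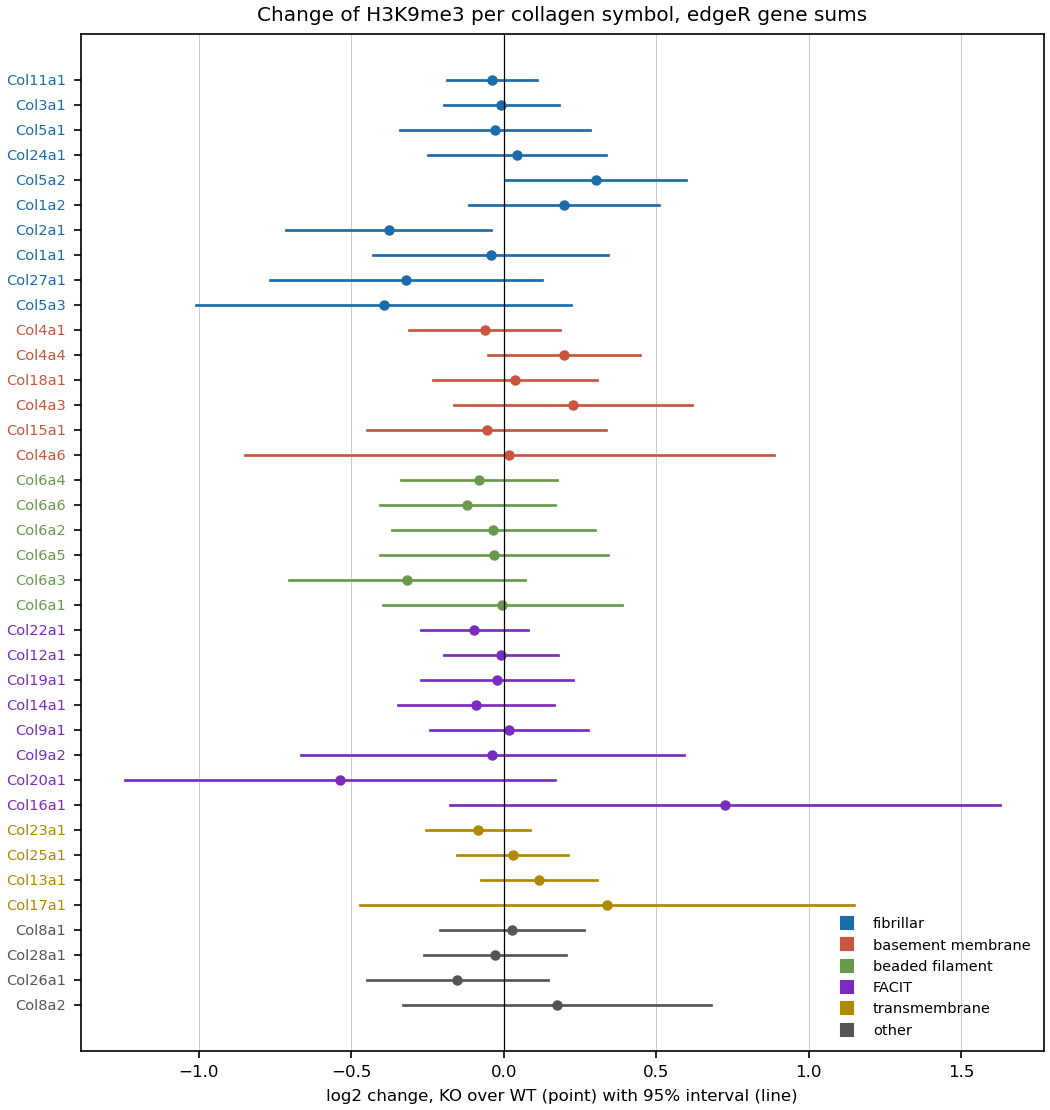
Log2 difference of H3K9me3, KO over WT, for the 38 tested collagen sums (points) with 95% intervals from edgeR (lines), coloured by class. Intervals cross 0 for all but Col2a1 and Col5a2, and none passed the adjusted threshold.

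The 8 symbols with the highest level are described first. Col11a1 had 365, 344 and 333 CPM in WT replicates 3, 4 and 8 and 343, 330 and 355 CPM in KO replicates 4, 5 and 7. Col23a1 had 181, 169 and 171 CPM in WT and 158, 175 and 166 CPM in KO. Col22a1 had 168, 172 and 161 CPM in WT and 153, 150 and 172 CPM in KO. In each of these the genotypes overlapped, and their log2 differences were -0.04 (SE 0.07), -0.08 (SE 0.09) and -0.10 (SE 0.09). Col25a1 had 151 ± 15.1 CPM in WT and 156 ± 4.65 CPM in KO (SD, n = 3). Col12a1, a collagen of fibril surfaces that is needed for normal muscle, had 135 ± 6.19 and 136 ± 12.8 CPM. Col3a1 had 127 ± 9.54 and 128 ± 3.76 CPM. These 3 also overlapped. Col13a1 had 114, 122 and 119 CPM in WT and 123, 139 and 128 CPM in KO, so each KO value lay above each WT value, with a log2 difference of 0.11 (SE 0.10). Col8a1, a collagen of the vessel wall and cornea, had 76.3 ± 6.43 and 79.0 ± 11.1 CPM and overlapped.

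The smallest unadjusted p-value among sums was that of Col2a1. Its values were 37.5, 36.8 and 42.5 CPM in WT replicates 3, 4 and 8 and 34.9, 23.6 and 32.3 CPM in KO replicates 4, 5 and 7. All KO values were below all WT values, KO replicate 5 being lowest. The log2 difference was -0.38 (SE 0.17, edgeR quasi-likelihood adjusted p = 1.00). All 7 tested Col2a1 regions had a log2 difference below 0, from -0.01 to -1.04. The region with the largest difference lay just before the start (chr15:98004838-98005328), with 37, 26 and 20 counts in WT and 16, 4 and 18 in KO. Without KO replicate 5 the log2 difference was -0.22 for the sum and -0.64 for that region, against -1.04 with all libraries. Inside the gene span alone the log2 difference was -0.24 (SE 0.23).

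Col5a2 went the other way, with 38.3, 39.4 and 40.8 CPM in WT replicates 3, 4 and 8 and 54.9, 46.2 and 46.6 CPM in KO replicates 4, 5 and 7. All KO values were above all WT values, KO replicate 4 being highest. The log2 difference was 0.30 (SE 0.15, edgeR quasi-likelihood adjusted p = 1.00). Without KO replicate 4 it was 0.19. Of its 7 tested regions 6 were above 0, and each of the 7 was intergenic, so the value describes the ground upstream of the gene. Summed with those of its neighbour Col3a1, the regions held 167 ± 10.8 CPM in WT and 177 ± 3.78 CPM in KO (SD, n = 3), which overlapped.

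The other sums with the smallest p-values were Col16a1, Col4a4 and Col1a2 on the higher side and Col6a3, Col20a1 and Col27a1 on the lower side. Col4a4 had 58.5, 64.1 and 58.5 CPM in WT and 65.4, 79.1 and 66.4 CPM in KO, which did not overlap, with a log2 difference of 0.20 (SE 0.13). Together with Col4a3, which starts beside it, the level was 83.3, 81.4 and 81.4 CPM in WT and 87.9, 106 and 94.5 CPM in KO, again without overlap, and the log2 difference was 0.23. Among the 37 tested regions of basement membrane collagens 24 were above 0, beside 77432 of all 153789 tested regions. The median of the 37 was 0.20, beside 0.0039 for all regions. Regions of 1 gene are not independent. Without KO replicate 5 the log2 difference of Col4a4 was 0.113. That of the basement membrane sum was then 0.012, against 0.082 with all libraries. Col17a1, a collagen of the hemidesmosome, was the remaining sum without overlap, with 5.33 ± 0.66 CPM in WT and 6.84 ± 0.72 CPM in KO (SD, n = 3).

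The rest overlapped between genotypes. Col1a2 had 36.4 ± 2.21 CPM in WT and 42.4 ± 5.62 CPM in KO (log2 difference 0.20, SE 0.16), and Col16a1, a fibril-associated collagen, 3.99 ± 1.62 and 6.66 ± 1.39 CPM (0.72, SE 0.45). Col6a3, a chain of type VI collagen mutated in some muscular dystrophies, had 28.2 ± 6.38 and 23.0 ± 5.01 CPM (-0.32, SE 0.19). Without its intergenic regions the log2 difference of Col6a3 was 0.14, of the opposite sign. Col20a1 had 9.76 ± 3.70 and 6.83 ± 3.88 CPM (-0.54, SE 0.36), and Col27a1, a fibrillar collagen of cartilage, 19.3 ± 2.97 and 15.6 ± 1.83 CPM (-0.32, SE 0.22). SDs are over 3 libraries.

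Restricting sums to regions inside the RefSeq span left 33 collagen genes, 0 with an edgeR adjusted p under 0.05 (background 0.0217%) and 2 with an unadjusted p under 0.05 (6.06%, background 3.89%). These were Col4a1, with a log2 difference of -0.51 (SE 0.20, edgeR quasi-likelihood adjusted p = 1.00), and Col9a1, a cartilage collagen, with -0.53 (SE 0.23, edgeR quasi-likelihood adjusted p = 1.00). Over all their regions the log2 differences of these 2 genes were -0.06 and 0.02.

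**Figure D5:**
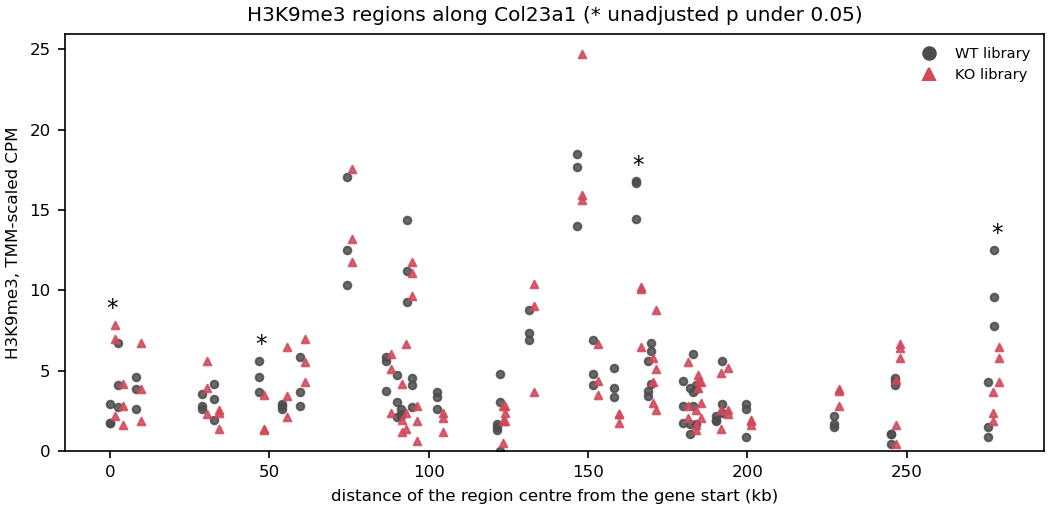
H3K9me3 at the 36 regions along Col23a1, in scaled CPM against distance from the gene start in kb, for the 3 WT (circles) and 3 KO libraries (triangles), drawn side by side with a small offset; asterisks mark an unadjusted p under 0.05. Marked regions lie higher in KO near the start and lower in KO at the other 3 places.

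Col23a1 held several of the regions with the smallest p-values, in both directions. An intronic region, chr11:51455627-51455802, had 80, 78 and 67 counts in WT replicates 3, 4 and 8 and 47, 44 and 28 in KO replicates 4, 5 and 7. All KO values were lower than all WT values, and the log2 difference was -0.84 (SE 0.25, edgeR quasi-likelihood adjusted p = 0.998). An exonic region, chr11:51567755-51568570, had 46, 36 and 58 counts in WT and 20, 28 and 25 in KO, also without overlap, with a log2 difference of -0.85 (SE 0.32). A region in the first kb of the gene, chr11:51290334-51290939, had 14, 8 and 8 counts in WT and 10, 30 and 34 in KO. There KO replicate 4 lay within the WT range, and the log2 difference was 1.39 (SE 0.49). Of the 32 tested regions of Col23a1, 16 were above and 16 below 0.

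The remaining regions with the smallest p-values were spread over other genes. A region upstream of Col13a1 (chr10:62024525-62024918) had 2, 7 and 10 counts in WT and 21, 18 and 15 in KO. One upstream of Col18a1, the source of endostatin (chr10:77182907-77183299), had 13, 21 and 25 counts in WT and 35, 39 and 31 in KO. One in an intron of Col4a4 (chr1:82506101-82506582) had 47, 57 and 40 counts in WT and 76, 73 and 55 in KO. These 3 were higher in each KO library in CPM, with log2 differences of 1.56, 0.90 and 0.58. Upstream of Col8a1 (chr16:57976976-57977662) the counts were 47, 41 and 19 in WT and 18, 17 and 20 in KO, with overlap and a log2 difference of -0.87. All of these had a Benjamini-Hochberg adjusted p of 0.998 with edgeR.

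Genes that modify, process, bind or sense collagen were read from a list of 56. Of these 45 carried a region and 43 were tested, with 0 past an edgeR adjusted p of 0.05 in either direction and 3 at an unadjusted p under 0.05 (6.98%, background 3.58%). DESeq2 and limma-voom called 0 and 0 of the list, with 1 and 3 at an unadjusted p under 0.05 (background 2.48% and 3.24%). The log2 difference was positive for 19 and negative for 24, with a median of -0.03. On the higher side were Ddr1, a receptor that is activated by collagen, with 14.2, 13.6 and 13.4 CPM in WT and 17.1, 19.4 and 24.2 CPM in KO (log2 difference 0.54, SE 0.23), and P3h2, a prolyl hydroxylase of collagen, with 40.8, 46.9 and 46.0 CPM in WT and 53.6, 55.3 and 56.0 CPM in KO (0.28, SE 0.14). On the lower side were Dcn, the fibril-binding proteoglycan decorin, with 106, 115 and 111 CPM in WT and 106, 86.9 and 94.0 CPM in KO (-0.23, SE 0.10), and Nid2, a basement membrane linker, with 33.4 ± 1.46 and 27.7 ± 5.80 CPM (-0.29, SE 0.18; SD, n = 3). The groups did not overlap for Ddr1, P3h2 and Dcn and overlapped for Nid2. At Dcn the gap was small, with 106.38 CPM in WT replicate 3 and 106.06 CPM in KO replicate 4. The groups also did not overlap for Tll2, Loxl4, Lair1 and Hspg2, higher in KO, and Crtap, lower in KO. Over all tested gene sums the share without overlap was 8.37%, with 4.87% higher and 3.5% lower in KO. The share in the tested list was larger, mostly on the higher side, and this difference was not tested. Ddr1, P3h2, Dcn and Nid2 each had a Benjamini-Hochberg adjusted p of 1.00 with edgeR.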

How the data were processed

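H3K9me3 CUT&Tag counts of 6 quadriceps libraries were grouped by the genotype labels. Per the submitters' processing notes, the tools were BWA, MACS2, Trimmomatic, bedtools, deepTools and DESeq2 1.6.3, with GRCm38; settings and order are not stated. The deposited table gives, per the file headers, whole numbers for each library, read as raw counts per region, and a normalised signal that was not used in tests. The deposited log2 fold change, p-value and adjusted p-value of the authors were read only for comparison, and the deposited score of each region was not used. Gene symbols, annotation classes and distances are the authors'. Gene spans and promoter windows came from RefSeq (GRCm38.p6).

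Differences in counts were assessed in R 4.3.3 with edgeR 4.0.16 (filterByExpr with minimum count 10 and minimum total 15, TMM scaling, robust quasi-likelihood fit, knockout over wild type), for regions and for sums per symbol. Benjamini-Hochberg adjustment ran over all features tested, with a threshold of 0.05. A region is inside a span when its midpoint is. CPM use TMM-scaled totals, and a spread is the SD of 3 libraries. No spike-in is named, so a uniform change is scaled away. The scripts were tested on simulated counts. DESeq2 1.42.0, limma-voom (limma 3.58.1), RLE factors, library totals, other filters, other region sets and leaving out each library were alternatives.

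The members, classes and the list of matrix genes were chosen with earlier results of these data known. Named were the 8 sums and 8 regions of highest level, the 4 of each with the smallest p in each direction, the 5 strongest promoter and exon regions, and of the matrix list the 2 with the smallest p in each direction. Genes named for position, density or lack of overlap, and sums inside spans, were added after their values were seen.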

Additional observations from a re-analysis of the deposited data

How the results depend on the processing

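No paired analysis was possible because the 2 genotypes share only replicate number 4. Over the alternatives, the count of collagen regions or sums past an adjusted p of 0.05 (or 0.10) was 0 in each direction. The count of regions at an unadjusted p under 0.05, 16 in the fit as reported, was 25 without a filter on low counts (4.26%, all regions 3.71%), 10 with a mean count of 20 (5.71%, all 4.20%) and 17 to 32 leaving out a library, with 32 without WT replicate 8 (6.75%, all 4.07%) and 31 without KO replicate 4 (6.39%, all 5.05%). For sums it was 1 with DESeq2 (2.63%, all sums 2.48%) and 0 without intergenic regions, with fewer counts per gene (0%, all 4.31%). Leaving out a library it was 1 to 4, with 4 without KO replicate 7 (10.3%, all sums 3.39%). It was 1 without WT replicate 3 (2.63%, all 2.63%), WT replicate 4 (2.63%, all 2.91%), KO replicate 4 (2.56%, all 8.54%) or KO replicate 5 (2.56%, all 2.82%). Without intergenic regions, the fibrillar sum had a log2 difference of -0.106. Differences near 0 changed sign. With library totals Col12a1 was at 0.00306 and Col3a1 at 0.00201; inside spans Col25a1 was at -0.0006 and Col6a3 at 0.13, and Col6a3 was at 0.136 without intergenic regions.

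Leaving out a library gave sums from -0.0907 to 0.00837 for Col11a1, -0.0696 to 0.103 for Col25a1, -0.0751 to 0.0277 for Col12a1, -0.0382 to 0.0308 for Col3a1 and -0.0787 to 0.114 for Col8a1. Regions ran from -0.0896 to 0.27 for Col23a1 (start 51436555), -0.132 to 0.107 and -0.334 to 0.00617 for Col11a1 (starts 114278379 and 113853911), -0.144 to 0.221 for Col26a1, -0.0544 to 0.158 for Col25a1 (start 130141933), -0.527 to 0.0953 for Col19a1, -0.403 to 0.479 for Col14a1, -0.407 to 0.218 for Col2a1 (start 98005358) and -0.134 to 0.767 for Col13a1 (start 61892266). The cause was not tested. Beside these, 576 values of named genes and regions kept their direction and their side of the threshold. Of the finer class sums, whose values moved by less than the spread between libraries, the fibril-associated sum was at 0.0448 without KO replicate 4, the membrane-anchored sum at -0.00283 without KO replicate 5 and the sum of other collagens between -0.0595 and 0.058 leaving out a library. The median standard error, 0.46 for a region and 0.22 for a sum over all features, bounds the precision.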
